A study of Homo sapiens with 8 samples.

Results

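The butyrophilin family genes described here are BTN3A1, BTN3A2, BTN3A3, BTN2A1, BTN2A2 and BTN1A1, 6 of the 18417 genes that the arrays measured through a probe set carrying a single gene symbol. Each of the 6 had 1 such probe set and none with several symbols. The genes were chosen by name, after the BTN3A genes had been seen among the genes raised by siRNA against 17β-HSD1. The differences between the siRNAs are therefore given as a description. Where counts of limma calls on that contrast are printed, they describe the fit and are no independent test of the members.

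The cells were T47D, a luminal breast cancer line that carries the estrogen receptor, and their RNA was hybridised to 8 Affymetrix Human Gene 1.0 ST arrays. The groups were 17β-HSD1 siRNA in E2 or in vehicle and control siRNA in E2 or in vehicle, with 2 arrays each. The first siRNA was a mix of 3 sequences against HSD17B1, whose product reduces estrone to the active estrogen estradiol (E2), and the control was a scrambled sequence. Every group was steroid-deprived for 2 days, transfected with 200 nM siRNA and, 48 h later, given 1 nM E2 or ethanol for 2 days. The labels name 2 independent culture experiments, and the replicate number was read as the experiment. A transient knockdown in 1 cell line has no T cells in the dish, so the arrays hold the tumour cell's side of butyrophilin biology only. In bulk RNA, a change in the share of cells and a change in RNA per cell cannot be told apart.

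Butyrophilins are membrane proteins of the immunoglobulin superfamily, related to the B7 costimulatory molecules. BTN3A1 binds phosphoantigens, small phosphorylated intermediates of the mevalonate pathway, through its intracellular PRY-SPRY domain, and together with BTN2A1 it activates the main γδ T cell subset of human blood. BTN3A2 lacks that intracellular domain, BTN3A3 keeps it, and both can pair with BTN3A1. BTN2A2 has been described as an inhibitor of T cell activation, and BTN1A1 is the butyrophilin of milk, a component of the membrane around milk fat globules. In human cells interferons are known to raise the BTN3A genes, and NLRC5, the transactivator of MHC class I genes, acts on their promoters.

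The promoter windows of 4 members are shown because they let the letters before the start site of genes that moved and genes that did not be set side by side. They run from 250 bases before to 50 bases after the start of transcription in RefSeq on GRCh38.p14, all on the plus strand of chromosome 6. They lie at chr6:26364948-26365247 for BTN3A2, chr6:26440254-26440553 for BTN3A3, chr6:26457705-26458004 for BTN2A1 and chr6:26500053-26500352 for BTN1A1. Capitals mark matches, on either strand, to CCAAT, to an X box core and to an interferon-stimulated response element as spelled out below the sequences, and none of these matches overlaps another.
BTN3A2: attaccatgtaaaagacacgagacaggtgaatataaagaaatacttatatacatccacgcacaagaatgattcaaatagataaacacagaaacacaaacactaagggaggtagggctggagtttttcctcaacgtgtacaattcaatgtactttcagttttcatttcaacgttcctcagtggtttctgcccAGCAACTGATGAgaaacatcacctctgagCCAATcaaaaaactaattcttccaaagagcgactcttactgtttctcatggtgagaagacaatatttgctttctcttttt
BTN3A3: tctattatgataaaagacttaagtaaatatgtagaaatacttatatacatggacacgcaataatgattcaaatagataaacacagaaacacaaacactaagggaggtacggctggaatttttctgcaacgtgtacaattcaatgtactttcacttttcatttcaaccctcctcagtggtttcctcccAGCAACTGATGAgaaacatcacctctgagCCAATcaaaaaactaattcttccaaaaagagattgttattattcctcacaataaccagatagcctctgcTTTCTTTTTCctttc
BTN2A1: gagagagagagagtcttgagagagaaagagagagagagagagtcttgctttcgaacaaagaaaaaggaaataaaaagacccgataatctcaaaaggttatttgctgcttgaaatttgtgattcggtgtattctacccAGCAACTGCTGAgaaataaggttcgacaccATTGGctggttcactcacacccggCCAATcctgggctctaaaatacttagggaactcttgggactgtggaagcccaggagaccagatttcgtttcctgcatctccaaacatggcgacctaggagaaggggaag
BTN1A1: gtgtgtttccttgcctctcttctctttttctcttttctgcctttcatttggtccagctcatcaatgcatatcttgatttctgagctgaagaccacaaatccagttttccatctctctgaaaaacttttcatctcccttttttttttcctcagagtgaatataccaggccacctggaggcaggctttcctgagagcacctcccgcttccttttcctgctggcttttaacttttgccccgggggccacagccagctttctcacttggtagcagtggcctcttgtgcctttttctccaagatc

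The windows of BTN3A2 and BTN3A3 were 82.6% identical over 305 aligned columns, whereas BTN3A2 and BTN2A1 were 47.5% identical. The X box core, known from MHC class II promoters, was searched for after the sequences had been seen, as AGCAAC, any base, G, any base and TGA. It matched BTN3A2 as AGCAACTGATGA at positions -59 to -48 from the start, and BTN3A3 with the same letters at -63 to -52. In BTN2A1 it matched as AGCAACTGCTGA at -113 to -102. Of all 35116 promoter windows, 22 held it on either strand (0.0626%). Because the pattern was chosen after the member windows had been seen, nothing is read from their matches beside that share. CCAAT stood downstream of it in these 3 windows, and 34.6% of all windows hold CCAAT or its complement. BTN1A1 had neither, nor did a second BTN3A2 window at chr6:26367928-26368227. The interferon-stimulated response element, searched as a pair of GAAA with 2 bases between, matched BTN3A3 alone among the 5 member windows, as TTTCTTTTTC on the other strand just after the start, against 3.57% of all windows. The shorter interferon regulatory factor half-site AANNGAAA, also chosen after seeing the sequences, matched 4 of the 5 windows, against 22.8% of all. It can overlap the longer element, and nothing is read from its count either. The gamma-activated site TTCNNNGAA, the CRE half-site TGACG and the estrogen response element (GGTCA, 3 bases, TGACC) matched no member window. They match 7.66%, 24.6% and 0.057% of all windows.

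One array, the vehicle replicate 1 of 17β-HSD1 siRNA, correlated less with the other arrays (mean r of 0.976) than the rest did (0.984 to 0.988). All 10 luminal markers, such as ESR1, GATA3 and KRT8, lay above the array median on every array, and their median signal was 11.44 to 12.03. Of 11 measured immune markers 1 to 3 lay above the array median, and of 10 stromal markers 2 or 3. The median immune signal was 6.13 to 6.94 with 17β-HSD1 siRNA and 6.19 to 6.23 with control siRNA. The array scale has no true zero, so no marker can be called absent. HSD17B1 itself had signals of 8.32 and 8.37 in 17β-HSD1 siRNA, E2 and 8.41 and 8.36 in 17β-HSD1 siRNA, vehicle, against 9.12 and 8.56 in control siRNA, E2 and 9.35 and 8.66 in control siRNA, vehicle. The difference averaged over the media was -0.56 ± 0.16 (log2, SE) and did not pass the threshold, with a limma adjusted p of 0.221. It was uneven between the experiments, with -0.80 in E2 and -0.94 in vehicle in experiment 1, and -0.19 and -0.30 in experiment 2.

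The 3 BTN3A genes had higher signals after 17β-HSD1 siRNA than after control siRNA in both media, by 2.57- to 3.01-fold averaged over them, while BTN2A1, BTN2A2 and BTN1A1 stayed between 0.955- and 1.01-fold. For BTN3A1, the phosphoantigen sensor, the log2 signal was 8.23 and 8.41 in 17β-HSD1 siRNA, E2 and 8.04 and 8.78 in 17β-HSD1 siRNA, vehicle, against 6.57 and 7.32 in control siRNA, E2 and 6.74 and 7.25 in control siRNA, vehicle (replicates 1 and 2). For BTN3A2, which has no PRY-SPRY domain, it was 8.26 and 8.45 in 17β-HSD1 siRNA, E2 and 8.04 and 8.74 in 17β-HSD1 siRNA, vehicle, against 6.34 and 7.24 in control siRNA, E2 and 6.44 and 7.11 in control siRNA, vehicle. Each of the 4 siRNA arrays lay above each of the 4 control arrays for both genes, and within each siRNA the arrays of the 2 media overlapped.

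BTN3A3, the third gene of the subfamily, had signals of 6.87 and 7.11 in 17β-HSD1 siRNA, E2 and 6.85 and 7.47 in 17β-HSD1 siRNA, vehicle, against 5.43 and 5.96 in control siRNA, E2 and 5.30 and 6.18 in control siRNA, vehicle. Its siRNA and control arrays did not overlap either. All 4 control arrays lay below their array's median signal, as did 3 of the 4 siRNA arrays. Over all 18417 genes, 2.12% had all 4 siRNA arrays above all 4 control arrays, and 18.3% in E2 and 11.4% in vehicle had both siRNA arrays above both control arrays. Because the genes were chosen on this contrast, nothing is read from 3 of 3 BTN3A genes standing above that share.

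**Figure D1:**
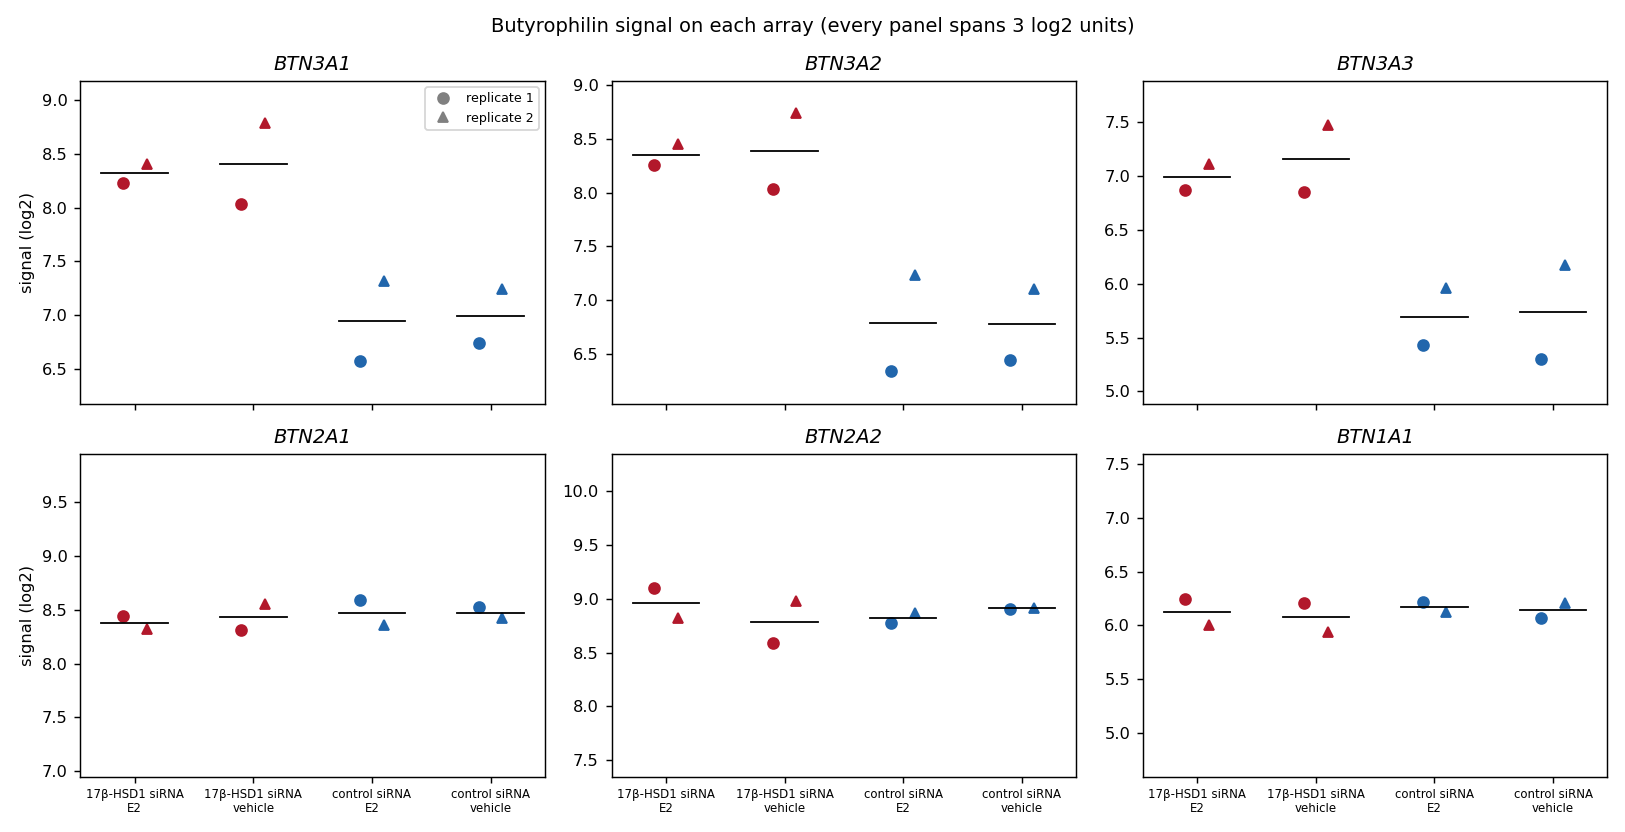
Log2 signal of each butyrophilin gene (vertical axis) on each array, by group (horizontal axis), with 17β-HSD1 siRNA in red and control siRNA in blue, replicate 1 as circles, replicate 2 as triangles, and the group mean as a line. The BTN3A panels have every red point above every blue one, with BTN3A1 between 6.57 and 8.78, while BTN2A1 spans only 8.31 to 8.59.

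The remaining members moved little. BTN2A1, the partner of BTN3A1 on the cell surface, had signals of 8.44 and 8.32 in 17β-HSD1 siRNA, E2 and 8.31 and 8.55 in 17β-HSD1 siRNA, vehicle, against 8.59 and 8.36 in control siRNA, E2 and 8.52 and 8.42 in control siRNA, vehicle. BTN2A2 had 9.10 and 8.83 in 17β-HSD1 siRNA, E2 and 8.59 and 8.98 in 17β-HSD1 siRNA, vehicle, against 8.78 and 8.87 in control siRNA, E2 and 8.91 and 8.92 in control siRNA, vehicle. For both genes the siRNA and control arrays overlapped in each medium. BTN1A1 had 6.25 and 6.01 in 17β-HSD1 siRNA, E2 and 6.21 and 5.94 in 17β-HSD1 siRNA, vehicle, against 6.22 and 6.12 in control siRNA, E2 and 6.07 and 6.21 in control siRNA, vehicle. It lay below the array median on all 8 arrays, whereas BTN2A1 and BTN2A2 lay above it on all 8.

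In order of group means, each BTN3A gene ran from 17β-HSD1 siRNA, vehicle to 17β-HSD1 siRNA, E2 and then, after a gap, to the control groups. The gap was 1.32 for BTN3A1, 1.57 for BTN3A2 and 1.26 for BTN3A3 on the log2 scale, and the steps on either side of it were at most 0.17, with overlapping arrays. No pair of neighbouring groups was apart by more than 0.05 for BTN2A1 and BTN1A1. For BTN2A2 the control siRNA, vehicle arrays lay above the control siRNA, E2 arrays, with means apart by 0.09. The fitted E2 change there was -0.09 ± 0.17 and was not called. How many of all genes separate in this way was not counted, so nothing is read from it.

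Averaged over the media, the fitted siRNA change was 1.39 ± 0.20 for BTN3A1, 1.59 ± 0.22 for BTN3A2 and 1.36 ± 0.21 for BTN3A3 (log2, SE, 4 arrays against 4). It was -0.07 ± 0.11 for BTN2A1, 0.01 ± 0.12 for BTN2A2 and -0.05 ± 0.11 for BTN1A1. The limma fit called 3 of the 6 members at an adjusted p below 0.05, the 3 BTN3A genes, where it called 0.457% of the 21214 probe sets tested, and 0.24% as higher. At an unadjusted p below 0.05 the same 3 were among 9.44%. The contrast chose the members, so nothing is read from that count. All 3 calls were lost on leaving out replicate 1 or replicate 2 of 17β-HSD1 siRNA in E2, and on fitting the unannotated probe sets too. In these settings limma called 0 probe sets of the table. The call of BTN3A3 alone was lost without replicate 2 of 17β-HSD1 siRNA, vehicle. The changes themselves lay between 1.14 and 1.81 with any 1 array left out. By size of change the 3 genes ranked 17th, 10th and 20th from the top of 18417 genes, and BTN2A2 ranked 9534th.

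In vehicle the changes were 1.42 ± 0.28 for BTN3A1, 1.61 ± 0.31 for BTN3A2 and 1.43 ± 0.29 for BTN3A3. In E2 they were 1.37 ± 0.28 for BTN3A1, 1.57 ± 0.31 for BTN3A2 and 1.30 ± 0.29 for BTN3A3. BTN2A1 had -0.04 ± 0.16 in vehicle and -0.09 ± 0.16 in E2, BTN2A2 -0.13 ± 0.17 and 0.14 ± 0.17, and BTN1A1 -0.07 ± 0.16 and -0.04 ± 0.16. Within 1 medium limma called 0 of the 6 members and 0.0% of probe sets at the adjusted threshold. At an unadjusted p below 0.05 the 3 BTN3A genes were among 5.45% of probe sets in vehicle and 4.61% in E2. With the experiment as a replicate block all 3 were called in each medium, among 31 probe sets called higher in vehicle (0.146%) and 41 in E2 (0.193%). These calls rest on the replicate numbers as labelled: with the 2 control siRNA, vehicle numbers crossed in the block, a setting chosen after seeing the data, limma called 0 members and 0 probe sets in either medium.

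Within an experiment, all 12 differences of the BTN3A genes were positive. BTN3A2 differed by 1.92 and 1.22 in E2 and by 1.60 and 1.63 in vehicle (log2, experiments 1 and 2). BTN3A1 differed by 1.66 and 1.09 in E2 and by 1.30 and 1.54 in vehicle, and BTN3A3 by 1.44 and 1.15 in E2 and by 1.56 and 1.30 in vehicle. In E2 the second experiment gave the smaller difference for each of the 3 genes. The 12 differences of BTN2A1, BTN2A2 and BTN1A1 lay between -0.32 and 0.33, with both signs for each gene.

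**Figure D2:**
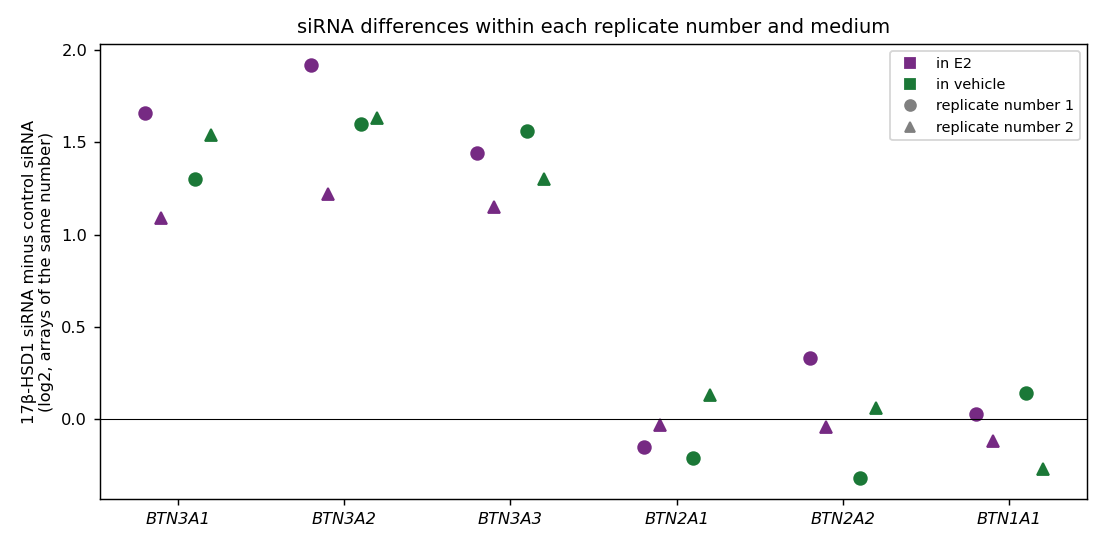
Log2 difference between the 17β-HSD1 siRNA array and the control siRNA array of the same replicate number (vertical axis) for each gene, in E2 (purple) and in vehicle (green), with circles for replicate number 1 and triangles for 2. BTN3A points lie between 1.09 and 1.92, and those of BTN2A1, BTN2A2 and BTN1A1 between -0.32 and 0.33.

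The mean change of the 3 BTN3A genes was 1.45, against -0.04 for the other 3, a difference of 1.49 on the log2 scale. The difference was 1.56 in vehicle and 1.41 in E2. By experiment it was 1.60 and 1.22 in E2 and 1.62 and 1.52 in vehicle. Among themselves the BTN3A genes differed less: the change of BTN3A2 exceeded that of BTN3A1 by 0.19 and that of BTN3A3 by 0.23. Each change had an SE of 0.20 to 0.22, which does not measure the spread of a difference between genes on the same arrays. By experiment BTN3A2 differed by 1.92 and 1.22 in E2 and BTN3A1 by 1.66 and 1.09. In vehicle BTN3A2 differed by 1.60 and 1.63 and BTN3A1 by 1.30 and 1.54. The differences between genes were not tested. The 3 genes are close copies of one another, and whether their probe sets share signal was not tested, since probe sequences were not used here. Their profiles over the 8 arrays, each centred on its own mean, differed by a root mean square of 0.12 to 0.17, against 0.74 to 0.91 between a BTN3A gene and any other member.

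The BTN3A signals also differed between the experiments. With control siRNA the second experiment was higher by 0.75 for BTN3A1, 0.90 for BTN3A2 and 0.53 for BTN3A3 in E2, and by 0.51, 0.67 and 0.88 in vehicle. With 17β-HSD1 siRNA it was higher by 0.18, 0.20 and 0.24 in E2 and by 0.75, 0.70 and 0.62 in vehicle. The gap between experiments was thus as large as 0.90 where the siRNA difference was 1.09 to 1.92. BTN2A1, BTN2A2 and BTN1A1 had gaps of 0.39 or less, in either direction.

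The 7 measured genes of the cluster alternate along chromosome 6. In RefSeq order they run BTN3A2, BTN2A2, BTN3A1, the pseudogene BTN2A3P, BTN3A3, BTN2A1 and BTN1A1, so genes with changes of 1.36 to 1.59 were interleaved with genes between -0.07 and 0.01. BTN2A3P, between BTN3A1 and BTN3A3, had -0.00 ± 0.11. Of the 10 genes on each side in RefSeq, mostly transfer RNA genes, 1 of 20 was measured, HMGN4, at 0.02 ± 0.10. The 6 nearest measured genes on each side, taken after that count was seen, are mostly histone genes. Their siRNA changes lay between -0.27 (H3C7) and 0.21 (ZNF322), and 0 of 12 were called by limma. With E2 2 of the 12 were called, the histone genes H3C7 (0.81 ± 0.12) and H2BC9 (0.85 ± 0.10).

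**Figure D3:**
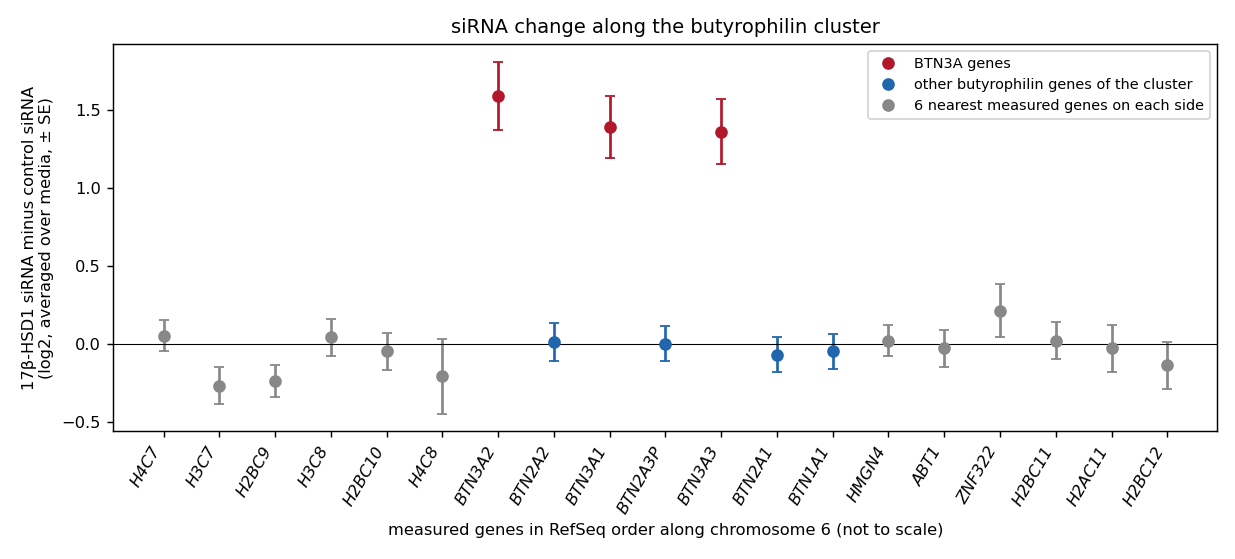
Change with 17β-HSD1 siRNA against control siRNA, averaged over the media (log2, points, with bars of ± 1 SE), for the measured genes of the butyrophilin cluster and the 6 nearest measured genes on each side, in RefSeq order with even spacing. The red BTN3A genes, at 1.36 to 1.59, alternate with blue neighbours near 0.

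E2, whose contrast was not used to choose the genes, changed none of the 6 members detectably. Averaged over the siRNAs, the change in E2 against vehicle was -0.07 ± 0.20 for BTN3A1, -0.01 ± 0.22 for BTN3A2 and -0.10 ± 0.21 for BTN3A3, with limma adjusted p of 0.993, 0.998 and 0.988. The 95% intervals ran from -0.51 to 0.37, from -0.50 to 0.48 and from -0.56 to 0.35, so changes beyond 1.5-fold either way lie outside each. For BTN2A1 the change was -0.03 ± 0.11, for BTN2A2 0.04 ± 0.12 and for BTN1A1 0.04 ± 0.11, with intervals within -0.27 and 0.31 and adjusted p of 0.996, 0.993 and 0.991. Limma called 0 of the 6 at the adjusted threshold and 0 at an unadjusted p below 0.05, where 1.55% and 8.89% of probe sets were called. The E2 and vehicle arrays overlapped for all 6, while 2.99% of genes had all E2 arrays above and 2.08% all below the vehicle arrays. PGR, the progesterone receptor gene and a known E2 target, rose 2.06-fold on the same arrays (1.04 ± 0.13, adjusted p = 0.00324).

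With either siRNA alone, limma again called 0 of the 6 members in E2 against vehicle, also at an unadjusted p below 0.05, beside 0.269% of probe sets with 17β-HSD1 siRNA and 0.0848% with control siRNA (unadjusted, 4.52% and 5.94%). The BTN3A changes ran from -0.17 to -0.03 with 17β-HSD1 siRNA and from -0.05 to 0.01 with control siRNA. The difference of the E2 change between the siRNAs was -0.04 ± 0.40 for BTN3A1, -0.05 ± 0.44 for BTN3A2 and -0.13 ± 0.41 for BTN3A3. Their 95% intervals reached -1.04 at the low end and 0.93 at the high end, so a difference of close to 2-fold could not be detected. BTN2A2 had the largest value, 0.27 ± 0.24 (limma adjusted p = 1.0). The test called 0 of 6 members at either threshold, and 0.0% of probe sets adjusted and 0.66% unadjusted.

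**Figure D4:**
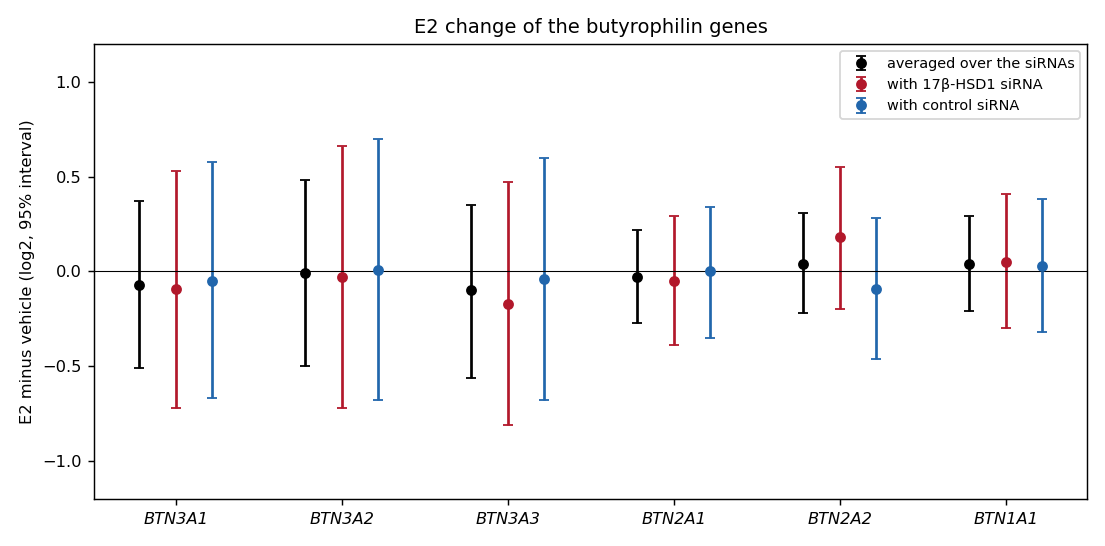
E2 minus vehicle (log2, points with 95% intervals from the fit) for each butyrophilin gene, averaged over the siRNAs (black), with 17β-HSD1 siRNA (red) and with control siRNA (blue). All intervals include 0, and the averaged values lie between -0.10 and 0.04.

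The genes whose centred profile over the 8 arrays was closest to the mean of the BTN3A genes were HCP5, APOL1, TRANK1, XAF1, OASL, PSMB9, RTP4, RANBP3L, PARP14 and TAP1, at root mean square differences of 0.16 to 0.27 among 18411 genes compared. HCP5 is a non-coding RNA gene of the MHC region, PSMB9 an immunoproteasome subunit gene, TAP1 encodes a subunit of the peptide transporter of class I presentation, and OASL and XAF1 are interferon-stimulated. These descriptions cover some of the 10 genes and give no count of the interferon-stimulated genes among them. HCP5 had signals of 9.33 and 9.06 in 17β-HSD1 siRNA, E2 and 8.85 and 9.76 in 17β-HSD1 siRNA, vehicle, against 7.36 and 8.18 in control siRNA, E2 and 7.54 and 7.88 in control siRNA, vehicle. It shares with the BTN3A genes both the gap between siRNAs and the higher second experiment in controls. In 17β-HSD1 siRNA, E2, however, HCP5 was lower in the second experiment, where the BTN3A genes were higher by 0.18 to 0.24. The siRNA changes of the 10 genes ran from 1.05 (RTP4) to 1.62 (XAF1). By Pearson correlation 3 of these 10, HCP5, APOL1 and RTP4, stayed among the closest 10, with r of 0.98 to 0.985, and ERAP1 came first at 0.991. All profiles come from the same 8 arrays, and these likenesses restate the siRNA contrast in part.

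**Figure D5:**
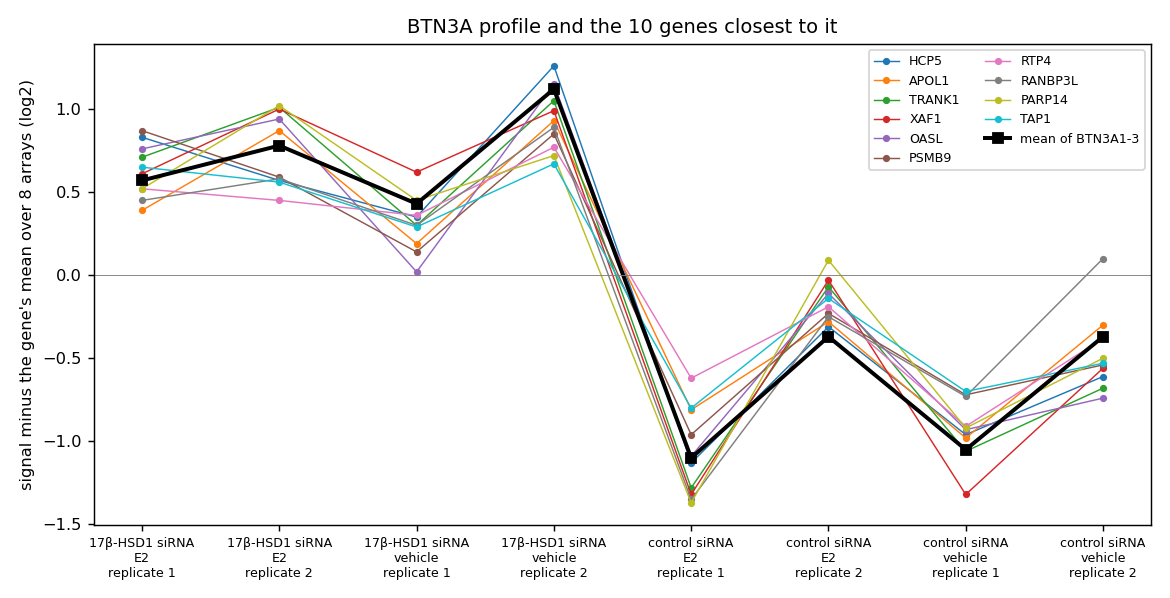
Signal of each gene minus its mean over the 8 arrays (log2, vertical axis) across the arrays (horizontal axis, 17β-HSD1 siRNA groups on the left), for the mean of the 3 BTN3A genes (black) and the 10 closest genes (colours). The BTN3A mean runs from 1.12 in 17β-HSD1 siRNA, vehicle, replicate 2 to -1.10 in control siRNA, E2, replicate 1.

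Other genes of the BTN3A pathway changed less. Of 12 measured genes of the class I enhanceosome and interferon-response factors, 0 were called in the averaged siRNA contrast (limma, 0.457% of probe sets), with a median change of 0.06 against 0.01 over all probe sets. NLRC5 had signals of 8.11 and 8.10 in 17β-HSD1 siRNA, E2 and 8.04 and 8.05 in 17β-HSD1 siRNA, vehicle, against 7.65 and 7.81 in control siRNA, E2 and 7.59 and 7.59 in control siRNA, vehicle. Its 17β-HSD1 siRNA arrays all lay above its control arrays, as for 2.12% of all genes. The change was 0.41 ± 0.10, with a limma adjusted p of 0.118. IRF9, a subunit of the factor that interferon activates, changed by 0.44 ± 0.11 (adjusted p = 0.154) and IRF1 by 0.37 ± 0.11 (0.233). In the averaged E2 contrast NFYB, a subunit of the factor that binds CCAAT, was the only 1 of the 12 called, at -0.70 ± 0.13 (adjusted p = 0.0225).

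Of 8 measured mevalonate pathway genes, which make the phosphoantigen, 0 were called in either averaged contrast. Under the replicate block 1 was called lower with 17β-HSD1 siRNA, as were 131 of all 21214 probe sets tested. ACAT2, at the entry to the pathway, had -0.51 ± 0.15 with 17β-HSD1 siRNA (adjusted p = 0.233) and 0.52 ± 0.15 with E2 (adjusted p = 0.183). FDPS, which uses up isopentenyl pyrophosphate and is the target of aminobisphosphonate drugs, had -0.12 ± 0.17 with 17β-HSD1 siRNA. Of 6 genes whose products act with BTN3A1, 0 were called. ABCA1, a lipid transporter reported to export phosphoantigen, had 0.46 ± 0.15 with 17β-HSD1 siRNA and -0.59 ± 0.15 with E2 (adjusted p of 0.289 and 0.098). RHOB, a small GTPase reported to act on BTN3A1, had -0.27 ± 0.18 with 17β-HSD1 siRNA.

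Other butyrophilin relatives showed no call with 17β-HSD1 siRNA. The 6 measured, BTN2A3P included, with ERMAP (0.12 ± 0.10), BTNL9 (0.11 ± 0.15) and BTNL3 (0.11 ± 0.13), had a median change of 0.11. Of 10 B7 family genes 0 were called with the siRNA, while with E2 NCR3LG1, a ligand of an activating natural killer receptor, rose 1.70-fold (adjusted p = 0.00605) and VTCN1, the inhibitory B7-H4 gene, fell to 0.530-fold (adjusted p = 0.0173). Of 19 TRIM genes whose products carry a PRY-SPRY domain like that of BTN3A1, 0 were called in the averaged siRNA contrast. Their median change was 0.06, against 0.01 over all probe sets. Under the replicate block 3 were called higher, as were 154 of all 21214 probe sets tested. TRIM22, an interferon-inducible antiviral factor, had 1.38 ± 0.28 (adjusted p = 0.0655), TRIM21 0.70 ± 0.19 (0.171) and TRIM5 0.64 ± 0.14 (0.0948). Of 12 other ligands for γδ T and natural killer cells 0 were called in either averaged contrast, and MICB had 0.75 ± 0.18 with E2 (adjusted p = 0.07).

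The 2 lists whose siRNA direction was known beforehand are given beside the BTN3A values. All 13 measured interferon-stimulated genes had positive averaged siRNA changes, with a median of 1.23, and 5 were called (13 under the replicate block). Over all 21214 probe sets 51 were called higher, or 154 under the replicate block. Of 6 measured class I presentation genes all were positive, with a median of 0.96, and TAP1 (1.09 ± 0.15), PSMB9 (1.23 ± 0.19) and B2M (0.94 ± 0.15) were called. The median signal of the interferon list also differed between replicates, with 9.68 and 10.34 in 17β-HSD1 siRNA, E2 and 9.40 and 10.18 in 17β-HSD1 siRNA, vehicle, against 7.93 and 9.22 in control siRNA, E2 and 8.07 and 8.69 in control siRNA, vehicle. Its part in the BTN3A values was not tested. For BTN1A1, none of 15 milk and lactation genes was called in either averaged contrast, and their median siRNA change was -0.06. ELF5, a transcription factor of milk-producing cells, had -0.51 ± 0.11 with E2 (adjusted p = 0.0547), and PRLR, the prolactin receptor gene, had -0.36 ± 0.10 with 17β-HSD1 siRNA (adjusted p = 0.206).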

How the data were processed

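Total RNA (0.2 µg, integrity number above 8) was amplified and 2.7 µg of cDNA hybridised, per the labels' protocols. The deposited values of 33297 probe sets were taken as log2 from their range (2.42 to 15.2). The sources used here do not say how the authors corrected, summarised or normalized them. Scanner files were not used. Array medians lay between 7.25 and 7.37. Symbols came from the platform annotation: 19460 probe sets had 1 symbol, 1754 several and 12083 none. The 21214 with a symbol were fitted, and a gene was read from its single-symbol probe set with the highest mean.

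Contrasts of the 4 group means were fitted with lmFit and eBayes of limma 3.58.1 (R 4.3.3; 4 residual degrees of freedom, Benjamini-Hochberg over all probe sets fitted), called at an adjusted p below 0.05, and were tested on simulated data. The number of arrays limits the precision. Promoter windows came from RefSeq (5 windows for 4 members) and were aligned with Biopython 1.88. Gene order came from the RefSeq table of GRCh38.p14. No build is stated for the arrays.

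Named genes are the 6 members, HSD17B1, list genes called or with the smallest p, the 10 closest profiles and flanking genes. The members and lists were chosen with earlier results of these data known. The labels name 2 culture experiments. Deviations of same-numbered arrays correlated at 0.31 to 0.44 for 4 of 6 pairs of groups, at 0.01 for control siRNA, vehicle with 17β-HSD1 siRNA, E2, and at -0.20 for control siRNA, vehicle with 17β-HSD1 siRNA, vehicle. The closing section gives the alternatives.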

Additional observations from a re-analysis of the deposited data

How the results depend on the processing

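The size of the BTN3A changes was steadier than their calls. Leaving out 1 array gave a BTN3A mean minus the mean of BTN2A1, BTN2A2 and BTN1A1 of 1.29 to 1.69 averaged over media (1.49 with all arrays), 1.23 to 1.90 in vehicle (1.56) and 1.01 to 1.81 in E2 (1.41). No sign of a BTN3A siRNA change turned under any alternative. Their siRNA and control arrays did not overlap, so leaving out 1 array could not turn a sign. Signs of uncalled values near 0 did turn, in at most 5 of 50 values per siRNA contrast for the other 3 genes and at most 11 of 47 per E2 or interaction contrast and subset.

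With all arrays the averaged siRNA contrast called 3 members. It called 0 with unannotated probe sets in the fit, and 0 to 3 with 1 array left out. Within a medium the count of 0 became 3 in vehicle and 3 in E2 with the replicate block as labelled but 0 in both with the control siRNA, vehicle numbers crossed, 3 in vehicle in the fit of the 4 arrays compared, and 0 to 2 in either medium with 1 array left out. Without dim probe sets BTN3A3 and BTN1A1 were not tested. No member was called in an E2 or interaction contrast under any alternative, the replicate block included, and the block changed no other member's call.

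Counts over all probe sets moved more. The 97 averaged siRNA calls became 0 with all probe sets, 285 with the replicate block and 0 to 186 with 1 array left out. In vehicle 0 became 37 with the block, 63 in the fit of 4 arrays and 0 to 30 with 1 array left out, and in E2 0 became 45 with the block, 1 in the fit of 4 arrays and 0 to 65 with 1 array left out. The 329 averaged E2 calls became 99 with all probe sets, 509 with the block and 121 to 319 with 1 array left out. The 18 E2 calls with control siRNA became 1 with all probe sets, 5 after quantile normalization, 39 with a trended robust spread, 127 with the block, 0 in the fit of 4 arrays and 2 to 26 with 1 array left out. With 17β-HSD1 siRNA 57 became 0 with all probe sets, 33 after quantile normalization, 111 with the block, 95 in the fit of 4 arrays and 0 to 79 with 1 array left out. The causes were not tested. Chosen after seeing the data, crossing the control siRNA, vehicle numbers in the block gave 170 averaged siRNA calls, 0 siRNA calls in vehicle, 0 in E2 and 55 E2 calls with control siRNA. It kept the 3 members called in the averaged siRNA contrast. Also chosen after seeing the data, 1 probe set per gene gave 28 E2 calls with control siRNA.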
